A study of Mus musculus with 6 samples.

Results

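The genes described here encode the adaptors and signalling enzymes of focal adhesions, the sites where integrins connect the extracellular matrix to the actin cytoskeleton. They are 49 mouse genes for integrin-tail binders, adaptors and kinases. The rule took them by gene symbol and used no measured value, although earlier results of these data were known. All 49 were found among the 23420 gene symbols of the count table. The eEnd2 cells are a mouse endothelial line of embryonic origin, and they had been stably transfected with human integrin β1A carrying GFP in its extracellular part, either wildtype (HUMAN_B1A-WT in the labels, β1-WT here) or with a lysine of the tail changed to glutamine to mimic acetylation (HUMAN_B1A-K794Q, β1-K794Q here). Both chimeras were expressed from a short fragment of the human β-actin promoter, and both lines kept the mouse gene for integrin β1. GFP positive cells had been sorted, and 3 cultures (A, B and C) of each line were grown to confluence and their total RNA was sequenced after removal of ribosomal RNA. The labels name a single transfection for each construct, so that effects of the construct and differences between the transfected populations cannot be told apart, and nothing says how far the cultures of a group were independent, so that p values measure the spread between these cultures. The labels describe a sort for low GFP and another for high GFP, and do not say which of them each culture came from.

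Integrins have no enzyme activity of their own, and their short cytoplasmic tails act by binding other proteins. Talin binds the membrane-proximal NPXY motif of the β tail and kindlin the distal one, and together they switch the receptor to the state that holds ligand; the lysine changed in K794Q lies in the distal motif. Filamin, ICAP-1 and SHARPIN hold the receptor back, the ILK-PINCH-parvin complex binds behind kindlin, the kinases FAK and Src phosphorylate paxillin and p130Cas, and vinculin, α-actinin, zyxin and VASP join the adhesion to actin. In endothelium these proteins hold the cells to the basement membrane and transmit tension to the cell-cell junctions.

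The libraries held between 9589826 and 15287191 counts, and the 49 genes made up 0.885% to 1.43% of each library. Values are given as normalized counts (CPM, scaled to the library size after TMM normalization), and the groups were compared with edgeR's quasi-likelihood test over the 11608 genes kept by the filter on low counts. A gene was called where the fold change reached 2 with an unadjusted p no higher than 0.05, the thresholds of the study, with Benjamini-Hochberg adjusted p over all tested genes beside them. Of the endothelial markers, *Pecam1*, *Cdh5*, *Kdr*, *Tek*, *Tie1*, *Eng*, *Erg* and *Emcn* were at 216 CPM or more in all 6 cultures, *Vwf* was at most 2.41 CPM, and *Cldn5* lay at 267 and 252 CPM in β1-WT cultures A and B against 4.74 in β1-WT culture C and at most 24.3 in the β1-K794Q cultures. Summed epithelial markers reached at most 1.18 CPM, with *Epcam*, *Krt18* and *Cldn4* at 0 in every culture, and the blood markers *Ptprc*, *Itgam* and *Cd3e* were at most 0.278 CPM, while the lysosomal gene *Cd68* was between 31.0 and 103 CPM. β1-WT culture C stood apart from A and B: 3001 and 2836 genes were at least 2-fold apart from it, against 248 between A and B. In the β1-K794Q group, culture B was at least 2-fold apart from A in 2231 genes and from C in 2809, against 1108 between A and C.

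Few focal adhesion genes passed the thresholds between β1-K794Q and β1-WT cells, a share near that of all tested genes. Of the 49 genes, 44 were tested, and 2 of them (4.55%) passed both thresholds, *Zyx* higher and *Flnc* lower in β1-K794Q cells, where 5.19% of all tested genes did, 3.48% higher and 1.71% lower. No focal adhesion gene had an adjusted p of at most 0.05 in the quasi-likelihood test, which 0.181% of all tested genes had. At an unadjusted p of at most 0.05 there were 4, *Zyx*, *Flnc*, *Tns3* and *Sorbs3*, or 9.09%, against 10.2% of all tested genes. At an adjusted p of at most 0.05 DESeq2 gave 3 genes, *Zyx*, *Tns3* and *Flnc*, and edgeR's likelihood ratio test 1 gene, *Zyx*. Over all 11608 tested genes the likelihood ratio test gave 318. The number over all genes with DESeq2 is not given here, so the 3 genes cannot be set against it. The median log2 fold change of the 44 genes was -0.05 and that of all tested genes -0.02. Of the 5 genes not tested, *Fermt1*, *Tns4* and *Efs* had no count in any culture, which allows up to 0.313 CPM, the value of 3 counts in the smallest library and a limit of counting error only, and *Ptk2b* and *Lpxn* were below the filter with at most 2.37 and 1.44 CPM. The count of 2 depended on single cultures. Without β1-K794Q culture A it was 0, and without β1-K794Q culture B 4 (*Enah*, *Flnc*, *Tln2* and *Zyx*). It was 3 without β1-K794Q culture C (*Evl*, *Fermt3* and *Zyx*) and 1 without β1-WT culture A (*Flnc*). Without β1-WT culture B it was 2, but *Evl* and *Flnc*. Without β1-WT culture C it was 2, *Nedd9* and *Zyx*, where 8.38% of all tested genes passed. For the other fits the share of all tested genes is not given beside these counts, which show only the dependence on single cultures.

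For many of these genes the 3 cultures per group set wide limits. The 95% interval of the log2 fold change lay between -1 and 1, so that it excluded a 2-fold difference in either direction, for 17 of the 44 genes (38.6%), against 48.0% of all tested genes. These 17 were *Tln1* and *Fermt2*, the tail binders *Itgb1bp1* and *Sharpin*, *Krit1*, *Ilk* and *Rsu1*. Also among them were the kinases *Ptk2*, *Fyn*, *Csk* and *Pak2*, and *Pxn*, *Crk*, *Crkl*, *Git1*, *Git2* and *Nisch*. For the other 27 a 2-fold difference in at least 1 direction was within the interval. In bulk RNA, a change in the number of cells expressing a gene and a change in RNA per cell cannot be told apart.

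**Figure D1:**
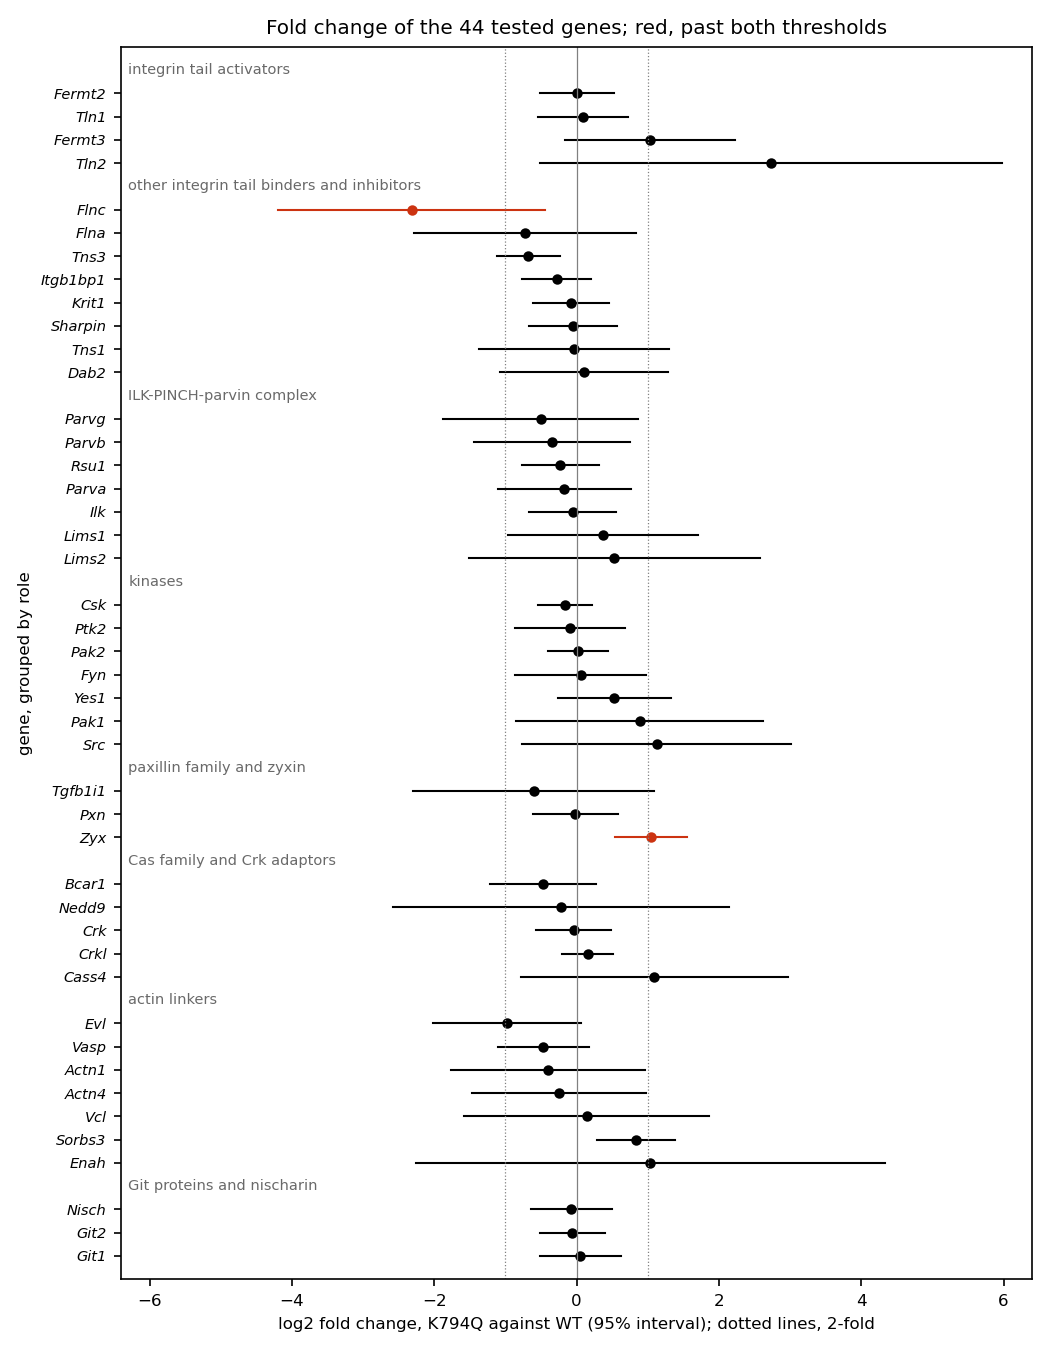
The log2 fold change of β1-K794Q against β1-WT cells (x axis, points) with its 95% interval (lines) for the 44 tested focal adhesion genes, grouped by role on the y axis; dotted lines mark 2-fold and red marks genes past both thresholds. *Zyx* at 1.05 and *Flnc* at -2.31 are the 2 red genes, and 17 intervals lie between the dotted lines.

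Of the 4 integrin tail activators with counts, *Fermt2*, *Tln1* and *Tln2* overlapped between the groups and *Fermt3* did not. *Fermt2* (chromosome 14, 45458795 to 45530118, minus strand) encodes kindlin 2, the kindlin of most adherent cells and the protein that binds the motif altered here. It had 163, 176 and 205 CPM in β1-WT cultures A, B and C and 156, 229 and 162 CPM in β1-K794Q cultures A, B and C. The 2 groups overlapped, with means of 181 ± 21.7 and 182 ± 40.4 CPM (SD, n = 3), and the log2 fold change was 0.01 with an interval from -0.52 to 0.53 (SE 0.22, adjusted p = 0.997 by edgeR). Talin 1, the main link from the β tail to actin, is encoded by *Tln1*, with 741, 710 and 1010 CPM in β1-WT and 759, 1045 and 817 CPM in β1-K794Q cultures, again overlapping, at a log2 fold change of 0.09 (interval -0.54 to 0.72).

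The paralogs of these activators were scarce. *Fermt3*, the kindlin of blood cells, had 1.05, 0.700 and 1.05 CPM in β1-WT and 2.79, 1.87 and 1.12 CPM in β1-K794Q cultures. These values rest on 7 to 29 counts, do not overlap between the groups, and gave a log2 fold change of 1.03 (SE 0.50, adjusted p = 0.577 by edgeR), short of a call with all 6 cultures and past both thresholds only without β1-K794Q culture C (1.31). *Tln2*, the second talin, had 0.350, 0.700 and 3.00 CPM in β1-WT cultures and 11.4, 0.296 and 15.9 CPM in β1-K794Q cultures. Culture B of the β1-K794Q group, with 3 counts, was the lowest of all 6, and the log2 fold change of 2.73 had an interval from -0.51 to 5.98. Without that culture it was 3.29 and passed both thresholds, as it did with all 6 cultures by DESeq2 (2.76) and by edgeR's likelihood ratio test (2.75). By level per kilobase of exon, *Tln1* made up 98.97% to 99.98% of the talins and *Fermt2* 98.4% to 99.6% of the kindlins in every culture.

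Among the other proteins that bind the integrin tail or one of its binders, 1 of the 8 tested genes passed both thresholds. The median log2 fold change was -0.18, and those of *Flna*, *Krit1*, *Sharpin*, *Tns1* and *Dab2* changed sign when some culture was left out. *Flnc* (chromosome 6, 29433256 to 29461883) encodes filamin C, an actin cross-linker best known from muscle. It had 54.1, 61.0 and 224 CPM in β1-WT cultures A, B and C and 22.2, 37.9 and 8.0 CPM in β1-K794Q cultures A, B and C. All β1-K794Q cultures were below all β1-WT cultures, and β1-WT culture C was far above the other two. The log2 fold change was -2.31 (SE 0.78, interval -4.19 to -0.44, adjusted p = 0.363 by edgeR), or 4.97-fold lower. With DESeq2 the adjusted p was 0.0428, and with edgeR's likelihood ratio test 0.0888. It was -1.33 and not called without β1-WT culture C, -2.31 and not called without β1-K794Q culture A, and -1.91 and not called without β1-K794Q culture C.

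Filamin A competes with talin for the β tail, and its gene *Flna* had the highest mean per kilobase of the 49 in β1-WT cells, a rank that rests on culture C. Its levels were 893, 875 and 3441 CPM in β1-WT and 602, 1285 and 1259 CPM in β1-K794Q cultures, with the high value again in β1-WT culture C. The log2 fold change was -0.73 with all cultures (interval -2.29 to 0.83) and 0.26 without β1-WT culture C. *Flnc* made up 5.71% to 6.52% of the 2 filamins per kilobase in the β1-WT cultures, and 3.56%, 2.86% and 0.631% in β1-K794Q cultures A, B and C, without overlap between the groups. This share of β1-WT culture C was thus like that of A and B, although both of its filamin genes were higher there.

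Tensins join the tail to actin in the long fibrillar adhesions under the cell. *Tns3* (chromosome 11, 8431652 to 8664535, minus strand) had 428, 486 and 492 CPM in β1-WT and 321, 274 and 283 CPM in β1-K794Q cultures. Replicates were close in both groups, the groups did not overlap, and the log2 fold change was -0.68 (SE 0.18, interval -1.13 to -0.23, adjusted p = 0.261 by edgeR), 1.60-fold lower and thus short of the fold threshold. With DESeq2 the adjusted p was 0.00331. Leaving out each culture in turn gave values from -0.75 to -0.63. *Tns1*, the tensin with the highest mean per kilobase in both groups, varied far more, with 1258, 1089 and 592 CPM in β1-WT and 831, 1630 and 409 CPM in β1-K794Q cultures. Its log2 fold change of -0.03 had an interval from -1.37 to 1.30. Across cultures *Tns3* accounted for between 19.4% and 54.3% of the tensin level per kilobase.

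The remaining genes of this group encode inhibitors, a partner of ICAP-1 and an endocytic adaptor, and none passed the thresholds. *Itgb1bp1*, for ICAP-1, which keeps talin off the β1 tail, had 33.9, 35.9 and 34.9 CPM in β1-WT and 26.5, 35.6 and 24.3 CPM in β1-K794Q cultures, with a log2 fold change of -0.28 (interval -0.77 to 0.21). *Krit1*, whose product binds ICAP-1, and *Sharpin*, an inhibitor of integrin activation, had log2 fold changes of -0.08 and -0.05. In both of these the β1-K794Q cultures lay close together, at 68.9 to 70.0 CPM and 40.7 to 43.6 CPM, and β1-WT culture C was the lowest of all 6 with 52.0 and 28.7 CPM. *Dab2*, a clathrin adaptor, had 886, 968 and 987 CPM in β1-WT cultures, and 771, 488 and 1798 CPM in β1-K794Q cultures, where the lowest and the highest of all 6 values were found.

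**Figure D2:**
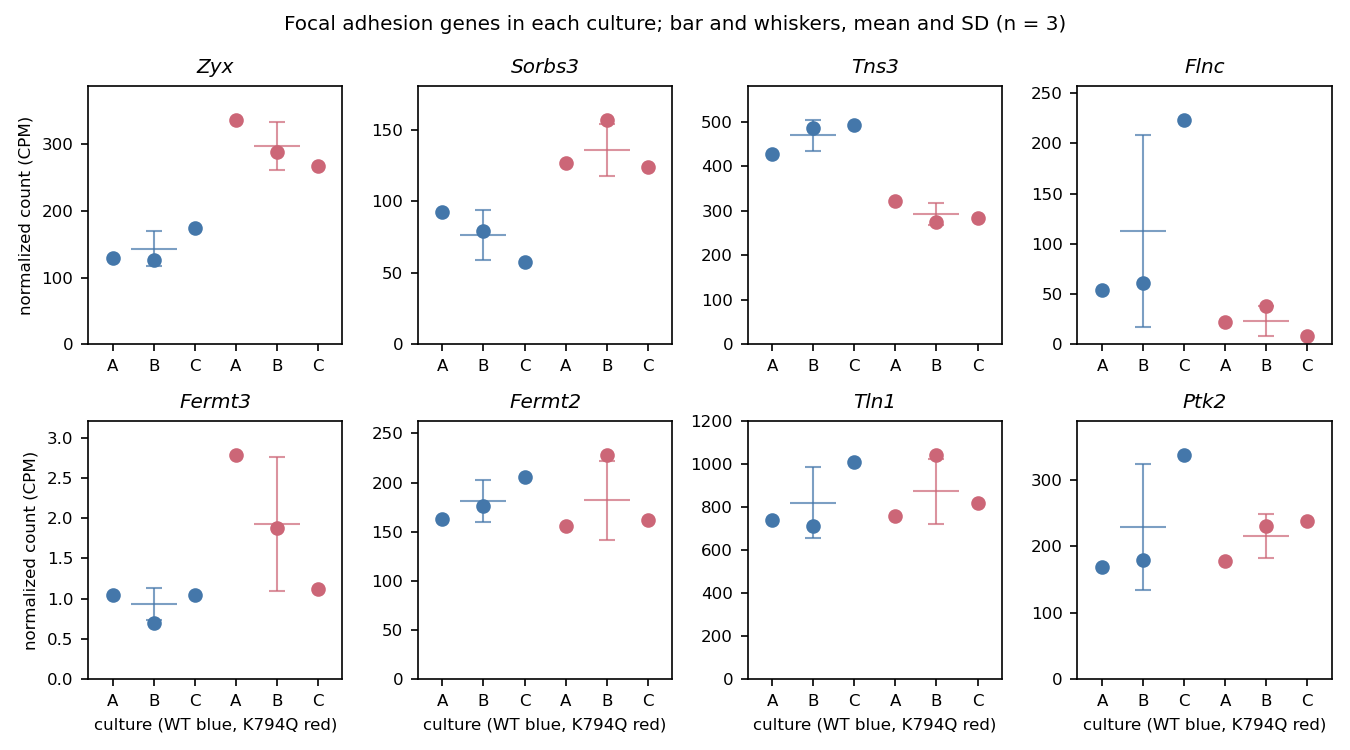
Normalized counts (CPM, y axes, starting at 0) of 8 focal adhesion genes in each culture (points; β1-WT blue, β1-K794Q red), with the mean and SD of the 3 cultures of a group (bar and whiskers). The groups do not overlap for *Zyx*, *Sorbs3*, *Tns3*, *Flnc* and *Fermt3*, and they overlap for *Fermt2*, *Tln1* and *Ptk2*.

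None of the 7 genes of the ILK-PINCH-parvin complex, the scaffold that links kindlin-bound integrins to actin, passed the thresholds. *Ilk*, for integrin-linked kinase, had 96.6, 103 and 120 CPM in β1-WT and 90.0, 139 and 78.1 CPM in β1-K794Q cultures, at a log2 fold change of -0.06 (interval -0.67 to 0.56). In the annotation 76.8% of the exonic bases of *Ilk* are shared with *Taf10* on the other strand, and reads of the pair cannot be told apart if strand was not used in counting. *Lims1*, for PINCH-1, was the abundant PINCH gene, with 495, 561 and 235 CPM in β1-WT and 362, 995 and 311 CPM in β1-K794Q cultures. Its extremes were β1-WT culture C at the bottom and β1-K794Q culture B at the top, and the log2 fold change was 0.37 (interval -0.97 to 1.71). The regional level of *Lims1* is the median of a window of 25 genes around it, itself included. In β1-K794Q culture B this level was 0.84 higher on the log2 scale than the mean of β1-WT cells. The part of the regional level in the *Lims1* value was not tested beyond the fit with that level taken out. In that fit the log2 fold change was -0.19. *Lims2*, for PINCH-2, moved opposite to *Lims1* in those cultures, with 11.6, 9.30 and 30.9 CPM in β1-WT and 33.9, 3.85 and 37.2 CPM in β1-K794Q cultures.

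The parvins bind ILK and actin. *Parvb*, the most abundant parvin per kilobase, had 130, 122 and 360 CPM in β1-WT and 148, 190 and 142 CPM in β1-K794Q cultures, and *Parva* 170, 191 and 425 against 194, 253 and 251 CPM. In both genes β1-WT culture C was the highest of all 6 cultures and β1-WT cultures A and B the lowest. The log2 fold changes were -0.35 and -0.17 with all cultures and 0.36 and 0.38 without β1-WT culture C, none of them called. *Parva* and *Parvb* kept nearly fixed proportions, with *Parva* at 33.2% to 42.0% of the parvin level per kilobase in every culture. *Parvg*, the parvin of blood cells, was at 2.17 to 8.36 CPM. *Rsu1*, which binds PINCH-1, was at 59.7, 62.5 and 61.7 CPM in β1-K794Q and 55.8, 64.6 and 94.7 CPM in β1-WT cultures.

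The kinases were also without a call, and their log2 fold changes ran from -0.17 to 1.12. *Ptk2*, for focal adhesion kinase (FAK), which autophosphorylates when integrins cluster, had 169, 179 and 338 CPM in β1-WT and 178, 231 and 237 CPM in β1-K794Q cultures. The log2 fold change was -0.09 (interval -0.86 to 0.68). *Fyn*, the most abundant of the 3 Src family genes per kilobase, had 249, 249 and 140 CPM in β1-WT and 150, 331 and 184 CPM in β1-K794Q cultures, at a log2 fold change of 0.06 (interval -0.86 to 0.98). *Src* itself had 23.9, 22.8 and 76.2 CPM in β1-WT and 53.0, 183 and 32.5 CPM in β1-K794Q cultures. β1-WT cultures A and B were the lowest of all 6, β1-K794Q culture B the highest, and the log2 fold change of 1.12 had an interval from -0.77 to 3.01. *Yes1* was at 110 to 189 CPM in β1-WT and 166 to 316 CPM in β1-K794Q cultures.

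*Csk*, which switches Src family kinases off, had among the tightest values of the list, with 74.6, 70.7 and 81.3 CPM in β1-WT and 59.1, 74.4 and 68.5 CPM in β1-K794Q cultures. Its log2 fold change was -0.17 (interval -0.55 to 0.22). The p21-activated kinases act below Rac and Cdc42 in adhesion turnover. *Pak2*, the more abundant of them per kilobase, had 210, 235 and 264 CPM in β1-WT and 246, 250 and 225 CPM in β1-K794Q cultures, and the interval of its log2 fold change of 0.02 ran from -0.40 to 0.45. *Pak1* varied like *Src*, with 12.5, 15.0 and 44.4 CPM in β1-WT and 36.4, 80.6 and 16.1 CPM in β1-K794Q cultures. Its log2 fold change was 0.89 (interval -0.85 to 2.62).

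*Zyx* (chromosome 6, 42349630 to 42360213) encodes zyxin, a LIM protein that gathers at adhesions and stress fibres under tension and brings VASP there. It had 129, 127 and 175 CPM in β1-WT cultures A, B and C and 337, 288 and 267 CPM in β1-K794Q cultures A, B and C. The lowest β1-K794Q culture was above the highest β1-WT culture, with means of 298 ± 35.8 and 144 ± 26.9 CPM (SD, n = 3). The fold change was 2.07 (log2 fold change 1.05, SE 0.21, interval 0.54 to 1.56, adjusted p = 0.145 by edgeR). As the value lies close to the fold threshold, it was not called without β1-K794Q culture A (0.95), β1-WT culture A (0.98) or β1-WT culture B (0.97), and it was called without each of the others, up to 1.23 without β1-WT culture C. The adjusted p was 0.000677 with DESeq2 and 0.0322 with edgeR's likelihood ratio test. *Epha1*, which shares 4.38% of the exonic bases of *Zyx* on the other strand, was at most 0.0987 CPM. The regional level, over a window of 25 genes that includes *Zyx*, differed by no more than 0.14 on the log2 scale from the mean of β1-WT cells in any culture.

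Paxillin is a scaffold on which FAK, Src and the Crk adaptors meet. Its gene *Pxn* had 176, 161 and 188 CPM in β1-WT and 154, 232 and 132 CPM in β1-K794Q cultures, at a log2 fold change of -0.02 (interval -0.62 to 0.58). *Tgfb1i1*, for the paxillin relative Hic-5, was at 16.4, 14.2 and 63.6 CPM in β1-WT and 10.3, 19.0 and 32.8 CPM in β1-K794Q cultures. The highest value was in β1-WT culture C, and the log2 fold change of -0.60 became 0.45 without it. Hic-5 accounted for 32.8% of the paxillin family level per kilobase in that culture against 11.8% and 11.1% in A and B.

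The Cas proteins are docking proteins for Src and Crk. *Bcar1*, for p130Cas, had the highest mean of the family per kilobase in both groups, although *Nedd9* was above it in β1-WT culture C and β1-K794Q culture B. It had 181, 180 and 300 CPM in β1-WT and 154, 117 and 205 CPM in β1-K794Q cultures, at a log2 fold change of -0.47 (interval -1.22 to 0.27). *Nedd9* (chromosome 13, 41309581 to 41487362, minus strand), for the family member HEF1, had 40.7, 48.5 and 473 CPM in β1-WT and 95.8, 222 and 166 CPM in β1-K794Q cultures. β1-WT culture C was 9.76-fold above the higher of the other two, and the β1-K794Q cultures lay between. With all cultures the log2 fold change was -0.22 (interval -2.58 to 2.14), and without β1-WT culture C it was 1.86 and passed both thresholds (SE 0.39, adjusted p = 0.128 by edgeR). *Cass4* had 0.962 to 1.80 CPM in all cultures except β1-K794Q culture B, with 6.22.

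The Crk adaptors connect Cas proteins and paxillin to exchange factors of Rac and Rap. *Crk* had 304, 352 and 317 CPM in β1-WT and 293, 390 and 263 CPM in β1-K794Q cultures, and *Crkl* 89.3, 90.2 and 85.9 against 101, 106 and 88.0 CPM. The groups overlapped for both, and the intervals of the log2 fold changes of -0.04 and 0.15 ran from -0.57 to 0.48 and from -0.20 to 0.51. *Crk* was 75.5% to 80.6% of the pair per kilobase in all 6 cultures.

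**Figure D3:**
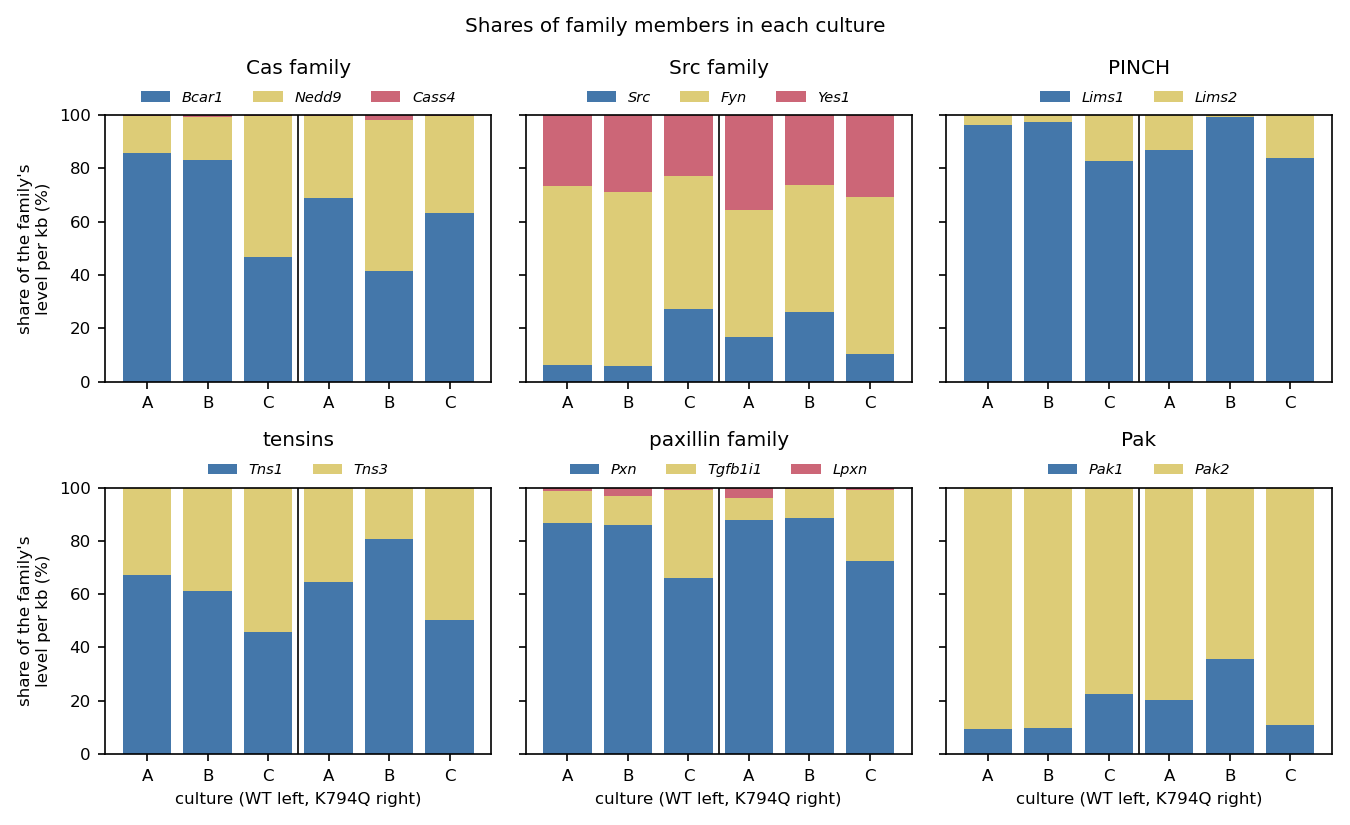
Share (%) of each family member in the summed level per kilobase of exon of its family, in the β1-WT cultures (left of the line) and the β1-K794Q cultures (right). *Nedd9* holds 13.8% and 16.0% of the Cas family in β1-WT cultures A and B, 52.9% in C, and 30.6%, 56.4% and 36.4% in β1-K794Q cultures A, B and C.

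The actin linkers gave no call in 7 tested genes. *Sorbs3* (chromosome 14, 70180468 to 70211989, minus strand), for vinexin, a partner of vinculin, had 92.6, 79.3 and 57.5 CPM in β1-WT and 127, 157 and 124 CPM in β1-K794Q cultures. All β1-K794Q cultures were above all β1-WT cultures, and the log2 fold change of 0.83 (SE 0.23, interval 0.28 to 1.38, adjusted p = 0.265 by edgeR) was short of 2-fold at 1.78. Without single cultures it stayed between 0.67 and 0.99. The regional level, over a window of 25 genes that includes *Sorbs3*, was 0.53 higher on the log2 scale in β1-K794Q culture B. The log2 fold change was 0.68 once the regional level was taken out.

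α-Actinin 4, encoded by *Actn4*, was the more abundant α-actinin per kilobase, with 401, 428 and 1270 CPM in β1-WT and 479, 747 and 547 CPM in β1-K794Q cultures. *Actn1* ran in parallel, with 181, 212 and 696 CPM in β1-WT and 214, 368 and 246 CPM in β1-K794Q cultures, and its share of the pair stayed between 33.1% and 37.8%. *Vcl*, for vinculin, which strengthens the talin-actin link under load, had 221, 271 and 1066 CPM in β1-WT and 390, 953 and 375 CPM in β1-K794Q cultures. In these 3 genes β1-WT culture C was the highest of the 6 cultures and β1-WT cultures A and B the lowest. The log2 fold changes were -0.24, -0.40 and 0.14 for *Actn4*, *Actn1* and *Vcl* with all cultures, and 0.52, 0.50 and 1.23 without β1-WT culture C, none of them called. In the annotation 25.5% of the exonic bases of *Vcl* are shared with *Ap3m1* on the other strand, which was at 63.8 to 114 CPM.

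The Ena/VASP proteins lengthen actin filaments at adhesions. *Vasp*, the most abundant of the 3, had 240, 169 and 187 CPM in β1-WT and 128, 191 and 112 CPM in β1-K794Q cultures, at a log2 fold change of -0.47 (interval -1.11 to 0.17). *Evl* had 52.7, 43.0 and 95.8 CPM in β1-WT and 28.9, 20.1 and 48.1 CPM in β1-K794Q cultures. Only β1-K794Q culture C reached into the β1-WT range, and the log2 fold change was -0.98 (SE 0.43, interval -2.02 to 0.06, adjusted p = 0.522 by edgeR). It was past both thresholds without β1-K794Q culture C (-1.38) and without β1-WT culture B (-1.20). *Enah* was at 4.67 to 6.82 CPM in β1-WT cultures and had 9.63, 0 and 25.8 CPM in β1-K794Q cultures, so that its log2 fold change of 1.04 became 1.63 and called without culture B and -0.26 without culture C.

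The Git proteins carry paxillin-bound complexes that act on Rac and Arf, and nischarin binds integrin α5 and restrains Pak. *Git1* had 214, 237 and 350 CPM in β1-WT and 283, 264 and 282 CPM in β1-K794Q cultures, with a log2 fold change of 0.05 (interval -0.52 to 0.62). *Git2* and *Nisch* had log2 fold changes of -0.06 and -0.07, and their groups overlapped at 120 to 157 and 330 to 527 CPM.

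Across the list, 5 of the 44 tested genes (11.4%) had no overlap between the groups, *Zyx*, *Sorbs3* and *Fermt3* higher and *Tns3* and *Flnc* lower in β1-K794Q cells, against 16.6% of all tested genes. For each of these 5 the two-sided exact permutation test of 3 cultures against 3 gave p = 0.1, the smallest value that it allows.

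Ordered by level per kilobase in β1-WT cells, *Flna* (185 CPM per kilobase), *Dab2* (129), *Actn4* (114), *Lims1* (88.0) and *Tln1* (83.7) led the list, and in β1-K794Q cells the order was *Dab2* (139), *Lims1* (114), *Flna* (112), *Actn4* (96.5) and *Tln1* (89.2). The groups overlapped for each of these 5 genes. The order in β1-WT cells rests on culture C, where *Flna* was at 366 and *Actn4* at 207 CPM per kilobase. In cultures A and B *Flna* was at 94.99 and 93.07, below *Dab2* (121 and 132) and *Lims1* (101 and 115), and *Actn4* at 65.5 and 69.9 was below *Tln1* (75.6 and 72.5). *Zyx* was at rank 21 with 26.7 CPM per kilobase in β1-WT cells and at rank 10 with 55.2 in β1-K794Q cells, and *Flnc* went from rank 30 with 12 to rank 39 with 2.42.

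Large differences within this list also lay between cultures of the same construct. In 14 of the 44 tested genes (31.8%) β1-WT culture C was at least 2-fold above both other β1-WT cultures, against 10.8% of all tested genes. They were *Nedd9*, *Vcl*, *Tgfb1i1*, *Flna*, *Flnc*, *Actn1*, *Actn4*, *Src*, *Pak1*, *Parva*, *Parvb*, *Parvg*, *Lims2* and *Tln2*. A single gene, *Lims1* (2.27%), was at least 2-fold below both, against another 10.8% of all tested genes. Of the other focal adhesion pathway genes, which were chosen from general knowledge with earlier results of these data known, 13 of 68 (19.1%) were above and 3 (4.41%) below by the same rule.

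The summed mesenchymal markers were highest in this culture, at low levels. They were at 25.8 CPM in β1-WT culture C against 0.612 to 3.65 CPM in the other 5. *Pdgfra* made up 16.4 CPM of the 25.8. *Col1a2* was at 0 there and at 3.16 CPM in β1-K794Q culture B, and *Dcn*, *Lum* and *Thy1* were at 0 in all cultures. The summed endothelial markers were at 8155 CPM in β1-WT culture C, within the range of 6407 to 12136 CPM over the 6 cultures. Single markers went both ways in that culture against β1-WT cultures A and B. *Erg* was lower with 228 against 606 and 596 CPM, *Tek* with 366 against 601 and 688 CPM, and *Cldn5* with the values given above. *Tie1* was lower too, with 774 against 1101 and 1230 CPM. Higher there were *Cdh5* with 2227 against 1338 and 1564 CPM and *Kdr* with 1154 against 777 and 798 CPM. *Eng*, *Emcn* and *Vwf* were also higher, and *Pecam1* lay between A and B. The part of these differences in the focal adhesion values was not tested.

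Without β1-WT culture C, the focal adhesion genes past both thresholds were *Nedd9* and *Zyx*, both higher, or 4.35% of the 46 genes then tested, where 8.38% of all tested genes passed, 5.99% higher and 2.39% lower. All 3 β1-K794Q cultures were above β1-WT cultures A and B in 13 of the 46 genes (28.3%), against 18.5% of all tested genes. These were *Actn1*, *Actn4*, *Fermt3*, *Git1*, *Nedd9*, *Pak1*, *Parva*, *Parvb*, *Sorbs3*, *Src*, *Tln1*, *Vcl* and *Zyx*. They were below in 4 (8.70%), *Flnc*, *Krit1*, *Sharpin* and *Tns3*, against 20.1% of all tested genes. The median log2 fold change of the 44 genes was 0.15 in this comparison, and that of all tested genes 0.04.

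Culture B of the β1-K794Q group stood apart in fewer of these genes. It was at least 2-fold above both other β1-K794Q cultures in 5 of the 44 (11.4%), *Cass4*, *Lims1*, *Pak1*, *Src* and *Vcl*, against 5.19% of all tested genes, and at least 2-fold below both in 3 (6.82%), *Enah*, *Lims2* and *Tln2*, against 9.48%. *Vcl*, *Src* and *Pak1* were in both lists, high in β1-WT culture C and high in β1-K794Q culture B within their groups.

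**Figure D4:**
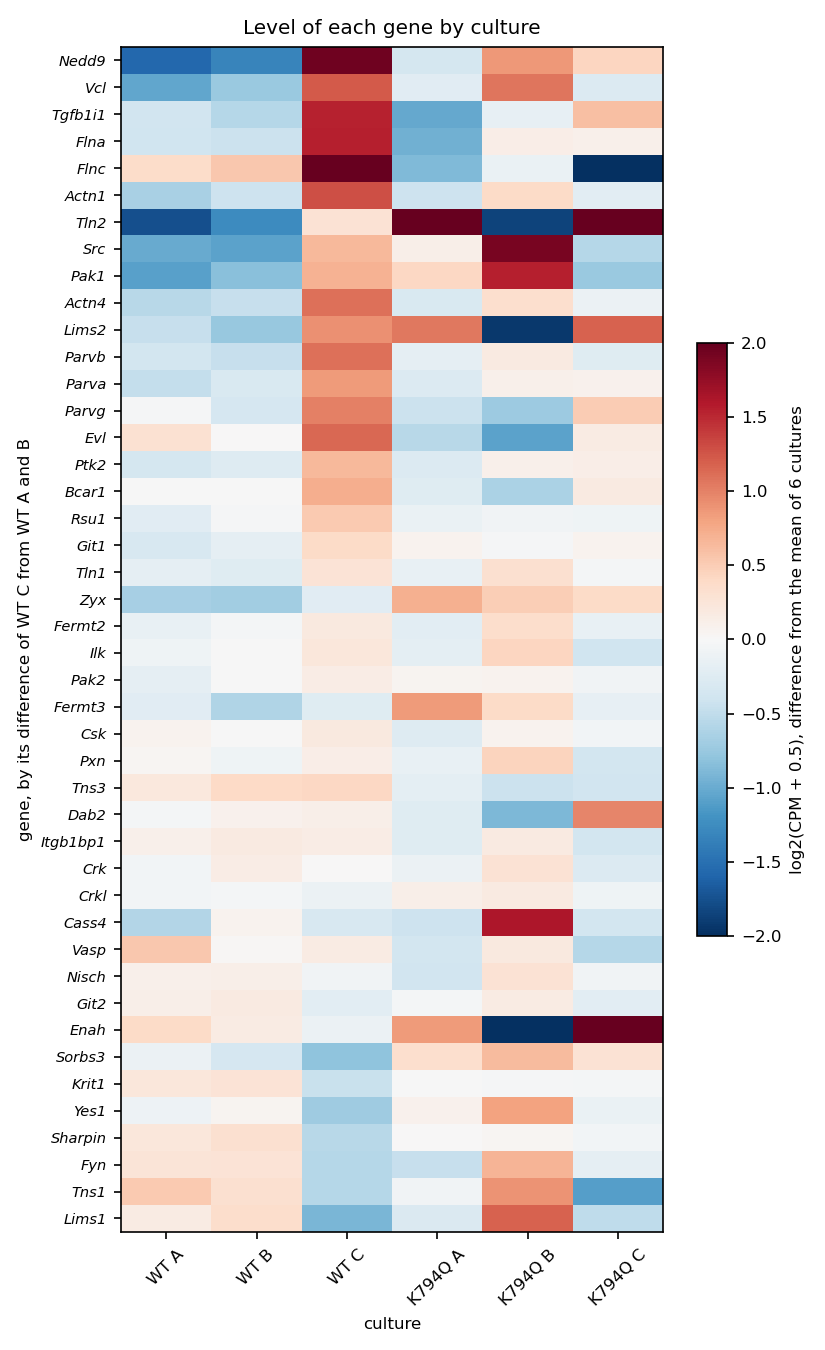
Level of the 44 tested focal adhesion genes (rows) in the 6 cultures (columns) as log2(CPM + 0.5) less the mean of the 6 cultures, colours limited at -2 and 2, with rows ordered by the difference of β1-WT culture C from A and B. The red block at the top of the third column holds *Nedd9*, *Vcl*, *Tgfb1i1*, *Flna*, *Flnc* and *Actn1*, all among the 14 genes at least 2-fold above both other β1-WT cultures there.

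Many genes of actin and adhesion carry a CArG box, the site of serum response factor, or the letters GGAATG, which TEAD factors recognize, in their promoters, and the members that moved together between cultures were therefore searched for both, on both strands, in the 250 bases before each RefSeq start (GRCm38.p6). Windows existed for 38 of the 49 genes. A CArG box was found in the windows of 2 genes, *Vcl* and *Fermt2*, or 3.92% of their 51 windows, against 1.47% of all 32851 windows. The letters GGAATG or CATTCC were found in 6 genes, *Actn4*, *Evl*, *Flna*, *Flnc*, *Nisch* and *Vcl*, or 13.7% of windows, against 12.6% of all. Of the 14 genes high in β1-WT culture C, 10 had windows, 13 in all. Of these windows 1 (7.69%) held a CArG box and 4 (30.8%) the letters GGAATG or CATTCC. With so few windows the difference from the shares of all windows was not tested. The bases before the start are shown for *Vcl* and *Actn4*, as members that moved together between cultures, and for *Fermt2*, which holds the CArG box and whose cultures lay close together; capitals mark the CArG box and GGAATG or CATTCC, which do not overlap each other, and bases within an annotated GENCODE transcript were left out.
*Vcl*, chr14:20929148-20929397, plus strand: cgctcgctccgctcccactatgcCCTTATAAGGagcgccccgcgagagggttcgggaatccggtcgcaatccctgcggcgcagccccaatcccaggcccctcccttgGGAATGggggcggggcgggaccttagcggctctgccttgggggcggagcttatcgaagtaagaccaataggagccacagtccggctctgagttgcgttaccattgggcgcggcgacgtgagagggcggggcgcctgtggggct
*Actn4*, chr7:28962341-28962582, minus strand: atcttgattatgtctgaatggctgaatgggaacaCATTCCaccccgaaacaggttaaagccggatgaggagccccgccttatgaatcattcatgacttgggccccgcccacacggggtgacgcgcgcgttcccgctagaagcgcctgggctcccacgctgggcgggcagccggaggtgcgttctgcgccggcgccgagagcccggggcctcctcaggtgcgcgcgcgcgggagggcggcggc
*Fermt2*, chr14:45530119-45530315, minus strand: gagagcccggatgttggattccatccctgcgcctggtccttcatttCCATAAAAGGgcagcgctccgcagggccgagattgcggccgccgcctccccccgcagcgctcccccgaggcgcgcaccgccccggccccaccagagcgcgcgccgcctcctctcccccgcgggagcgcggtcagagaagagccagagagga
In *Vcl* the CArG box is at bases 24 to 33 of the printed run and GGAATG at bases 108 to 113, in *Actn4* CATTCC is at bases 35 to 40, and in *Fermt2* the CArG box is at bases 47 to 56. The highest of the 6 levels was 4.82-fold the lowest for *Vcl* and 1.47-fold for *Fermt2*, and the relation of the motif to these values was not tested.

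The remaining genes of the pathway were taken as 71 genes in 4 lists, of which 68 were tested. Of these, 3 (4.41%) passed both thresholds. That share is near the 5.19% of all tested genes, 3.48% higher and 1.71% lower. Of 17 genes for small GTPases, their exchange factors and other regulators or partners 2 were higher, and of 30 tested scaffolds 1 was lower. None of the 9 phosphatases and phosphoinositide kinases or the 12 downstream adaptors and kinases was called. *Elmo1*, which activates Rac together with Dock proteins, had 25.5, 24.1 and 36.8 CPM in β1-WT and 48.8, 63.0 and 72.8 CPM in β1-K794Q cultures, without overlap, at a log2 fold change of 1.10 (SE 0.25, adjusted p = 0.178 by edgeR). It was just short of 2-fold without β1-K794Q culture C (0.96) and without β1-WT culture B (0.98). *Arhgef6*, for α-PIX, the exchange factor that binds Git proteins, had 11.0, 10.2 and 9.68 CPM in β1-WT and 12.8, 54.9 and 19.5 CPM in β1-K794Q cultures, at 1.495 (SE 0.55, adjusted p = 0.415 by edgeR). Most of that difference lay in culture B, without which it was 0.66 and not called. It was also not called without β1-WT culture A (1.54), B (1.49) or C (1.46).

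*Fblim1*, for migfilin, which connects filamins to kindlin, had 66.7, 71.7 and 168 CPM in β1-WT and 16.5, 7.50 and 50.6 CPM in β1-K794Q cultures. It was lower in all β1-K794Q cultures, with a log2 fold change of -2.04 (SE 0.75, adjusted p = 0.419 by edgeR), and was not called without β1-WT culture C (-1.46), β1-K794Q culture A (-1.81) or β1-K794Q culture B (-1.61). As with its partner *Flnc*, the highest value was that of β1-WT culture C. Without that culture 10 pathway genes (14.7%) were called, all higher in β1-K794Q cells, against 5.99% of all tested genes called higher and 2.39% lower, among them *Cav1*, *Elmo1*, *Palld*, *Pdlim1*, *Rap1b* and *Sdc4*.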

How the data were processed

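Total RNA of 3 β1-WT and 3 β1-K794Q cultures of eEnd2 cells was sequenced. The submitters' processing notes name bcl2fastq 2.20.0, STAR 2.7.4a, HTSeq 0.9.1, edgeR 3.38.4 and mm10; the authors deposited raw counts of reads per gene symbol, not normalized, and whether strand was used in counting is not given in the sources used here. The table held 0 further columns of values per sample.

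Groups followed the labels. In R 4.3.3 with edgeR 4.0.16, filterByExpr kept 11608 of 23420 genes, libraries (9589826 to 15287191 counts) were scaled by TMM, and glmQLFit and glmQLFTest (two-sided) were fitted over all tested genes (common dispersion 0.186). The standard error is the log2 fold change over the square root of its F statistic, and 95% intervals use its t distribution. Scripts were tested on simulated counts. Genes were matched to GENCODE M21 (GRCm38) by symbol, and exon length is the union of exons. The regional level of a gene is the median log2 ratio of CPM to the β1-WT mean over a running window of 25 tested genes, the gene itself included. DESeq2 1.42.0, the likelihood ratio test, RLE, other filters, a replicate block and leaving out each culture were alternatives. Figures and tables were made with Python 3.11.15, pandas 2.3.3, scipy 1.17.1 and matplotlib 3.10.9.

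Full values are given for genes called, for those without overlap at an absolute log2 fold change of at least 0.5, and for the most abundant member of each family per kilobase; *Nedd9*, *Vcl*, *Src* and further genes given in full were chosen after their values were seen. The genes, lists and tests were chosen with earlier results of these data known. HUVEC experiments and other assays were not analysed here. Not every pathway gene called is named here.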

Additional observations from a re-analysis of the deposited data

How the results depend on the processing

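Of 603 genes called with all cultures, the count was 916 with no filter on low counts and stayed within 1.5 times with 10 counts required in every culture, with RLE normalization, DESeq2, edgeR's likelihood ratio test and the regional level taken out. The 2 focal adhesion genes called remained 2 with no filter, the stricter filter, RLE normalization and the regional level taken out, and became 3, with *Tln2*, under DESeq2 and under the likelihood ratio test. With the culture letter as a replicate block there was 1, *Zyx*, and *Flnc* was not called. The deviations of same-lettered cultures were correlated at 0.09, 0.05 and 0.10. β1-K794Q cultures B and C were best matched by their own letter, and culture A about equally by β1-WT cultures A (0.0947) and B (0.0954). These small values do not settle whether the letters pair the cultures, and the block was not used in the main fit. Leaving out single cultures gave 501 to 992 called genes in all, 0 to 4 focal adhesion genes, 1 to 10 of the other pathway genes, and 5 to 17 focal adhesion genes without overlap, where the fewer cultures make non-overlap more frequent. The 1 pathway gene was without β1-WT culture B and the 10 without β1-WT culture C.

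Of the 44 tested focal adhesion genes, 16 kept the sign of the log2 fold change in every alternative in which they were tested, among them *Zyx*, *Flnc*, *Tns3*, *Sorbs3*, *Fermt3*, *Evl* and *Src*. The other 28 changed sign when some culture was left out, and none of these was called with all cultures: *Actn1* (-0.72 to 0.50), *Actn4* (-0.53 to 0.52), *Cass4* (-0.17 to 1.46), *Crk* (-0.22 to 0.074), *Dab2* (-0.59 to 0.44), *Enah* (-0.26 to 1.63), *Fermt2* (-0.19 to 0.11), *Flna* (-1.05 to 0.26), *Fyn* (-0.34 to 0.28), *Git1* (-0.0904 to 0.30), *Git2* (-0.16 to 0.029), *Ilk* (-0.34 to 0.11), *Krit1* (-0.26 to 0.042), *Lims1* (-0.35 to 0.66), *Nedd9* (-0.70 to 1.86), *Nisch* (-0.26 to 0.075), *Pak2* (-0.057 to 0.12), *Parva* (-0.41 to 0.38), *Parvb* (-0.62 to 0.36), *Parvg* (-1.03 to 0.077), *Ptk2* (-0.27 to 0.32), *Pxn* (-0.28 to 0.14), *Rsu1* (-0.38 to 0.038), *Sharpin* (-0.27 to 0.11), *Tgfb1i1* (-1.10 to 0.45), *Tln1* (-0.055 to 0.28), *Tns1* (-0.65 to 0.33) and *Vcl* (-0.45 to 1.23). The sign also turned with no filter for *Fermt2* (-0.0047), with the block for *Fermt2* (-0.0103), *Dab2* (-0.11), *Nedd9* (0.71) and *Enah* (-0.048), and with the regional level taken out for *Sharpin* (0.13), *Tns1* (0.084), *Lims1* (-0.19), *Fyn* (-0.046), *Pak2* (-0.016), *Pxn* (0.029), *Nedd9* (0.018), *Git1* (-0.34) and *Git2* (0.13). The causes were not tested.

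*Fermt3*, *Tln2*, *Cass4* and *Parvg* had few counts, so counting error weighs more on them than on the others. Cultures of a group were also far apart in some of them. *Tln2* had 118, 3 and 185 counts and *Cass4* 12, 63 and 14 in β1-K794Q cultures A, B and C. The parts of depth and of spread in their intervals were not separated. For most of the rest the limit is the spread between cultures of a group.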
